A study of Mus musculus with 28 samples.

Results

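Cell division genes were followed through the remodeling of the mouse arteriovenous fistula (AVF), in which the end of the jugular vein is joined to the side of the carotid artery and the vein receives arterial flow. The 44 genes were taken as a list of symbols, with no measured value in the rule, but the list was chosen with earlier results of these data known. Of the 44, 15 act in DNA replication, 26 act in mitosis, and 3 (*Foxm1*, *Mybl2*, and *Stmn1*) serve other roles in division. All 44 were found among the 56980 genes of the bulk RNA table and among the 32285 genes of the single-cell matrices, and all 44 were among the 12673 bulk genes with enough counts to be tested. Bulk RNA was sequenced from 7 contralateral jugular veins and from the outflow vein of 8 early, 5 mid, and 5 late AVFs, labeled as collected 3, 10, and 21 days after the operation. One library was made per vessel, and the animals were male and female C57BL/6 mice (contralateral 5 female and 2 male, early 3 and 5, mid 3 and 2, late 3 and 2). Every mouse had undergone a subtotal nephrectomy before the AVF was made, so the contralateral veins came from mice with reduced kidney mass and are not veins of healthy mice. Cells were also sequenced singly from 3 libraries, each a pool of contralateral veins, early AVFs, or late AVFs, with no library of mid AVFs. By the study's methods the AVFs of the early and late single-cell pools were collected at later mean days than the bulk AVFs of the same name, so the labels early and late do not mark equal ages in the 2 assays.

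A dividing cell first loads the MCM helicase onto DNA, raises its supply of deoxynucleotides, and copies the genome around the sliding clamp PCNA. It then builds up cyclin B and CDK1, condenses the chromosomes, attaches them to the spindle through the centromere, and separates them once the anaphase-promoting complex has marked cyclin B and securin for destruction. The replication genes are driven mainly by E2F factors, and the mitotic genes by NF-Y, B-MYB, and FOXM1. Resting vessel walls hold few dividing cells, and division of fibroblasts, smooth muscle cells (SMCs), and recruited macrophages is a known feature of injured veins and of AVFs.

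The start of the gene is shown first for 6 members, because promoters of such genes are known for short words that they share. RefSeq promoters were at hand for 35 of the 44 members, and *Mcm4*, *Gins2*, *Ccne2*, *Ccna2*, *Foxm1*, *Aurkb*, *Kif20a*, *Tpx2*, and *Stmn1* had no entry. The 3 mitotic and 3 replication members printed had the smallest adjusted p in the comparison of early AVFs with contralateral veins among members with an entry. Each piece is the 120 bases before the annotated start in the RefSeq annotation of GRCm38.p6, written 5′ to 3′ on the strand of the gene. Capitals mark a CCAAT box (CCAAT or its reverse complement ATTGG) or a cell cycle homology region, CHR (TTTGAA or its reverse complement TTCAAA, or TTTAAA, which is its own reverse complement). *Birc5* lies on the plus strand at chr11:117849117-117849236, *Kif11* on the plus strand at chr19:37376262-37376381, and *Cdk1* on the minus strand at chr10:69352913-69353032. *Mcm5* lies on the plus strand at chr8:75109389-75109508, *Rrm2* on the plus strand at chr12:24708134-24708253, and *Pclaf* on the plus strand at chr9:65890203-65890322.
Birc5: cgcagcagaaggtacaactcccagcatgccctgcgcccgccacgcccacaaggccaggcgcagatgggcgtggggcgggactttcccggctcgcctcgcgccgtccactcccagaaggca
Kif11: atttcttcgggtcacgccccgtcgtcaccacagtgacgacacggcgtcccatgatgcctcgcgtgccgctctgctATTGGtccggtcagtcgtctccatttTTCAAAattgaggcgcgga
Cdk1: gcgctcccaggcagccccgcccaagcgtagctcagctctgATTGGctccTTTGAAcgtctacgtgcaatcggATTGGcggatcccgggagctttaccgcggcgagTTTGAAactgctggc
Mcm5: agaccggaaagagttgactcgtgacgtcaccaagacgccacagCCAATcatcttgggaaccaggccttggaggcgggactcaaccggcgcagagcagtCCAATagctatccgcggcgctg
Rrm2: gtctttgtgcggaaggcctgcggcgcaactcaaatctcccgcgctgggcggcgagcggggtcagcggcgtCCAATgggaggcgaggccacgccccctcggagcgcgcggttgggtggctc
Pclaf: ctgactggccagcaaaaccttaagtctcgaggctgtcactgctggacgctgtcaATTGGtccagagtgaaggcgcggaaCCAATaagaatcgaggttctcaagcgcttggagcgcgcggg

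Within the 250 bases before the start, a CCAAT box was found in 28 of 35 members (80.0%), against 34.5% of all 27025 promoters of the same length. A CHR word stood in 16 of 35 (45.7%, against 25.5%), in 12 of 22 mitotic members (54.5%) and 4 of 12 replication members (33.3%). An E2F word, which was TTGGCGC in its best known form, TTGCCGC in another spelling, TTCGCGC with a changed middle, or lastly TTCCCGC, searched on both strands, stood in 9 of 35 (25.7%, against 7.97%). These were 4 of 22 mitotic members (18.2%) and 5 of 12 replication members (41.7%). An A before TTGGCGC makes a CCAAT box that overlaps the E2F word. *Cdk1* held 2 CCAAT boxes and 2 CHR words in the piece shown, *Kif11* 1 of each, *Mcm5* and *Pclaf* 2 CCAAT boxes, and *Rrm2* 1 CCAAT box. A match is a string of letters and not a bound site, and the shares were not tested.

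Most contralateral libraries held fewer genes than AVF libraries, and most members were at 0 in some of them. Total counts ranged from 20254173 to 29913427 in contralateral veins, 23676215 to 67457501 in early, 27021483 to 33395623 in mid, and 27855449 to 36879746 in late AVFs. Genes with a count numbered 11958 to 18283 in contralateral veins, 17514 to 25141 in early, 25075 to 26168 in mid, and 24529 to 26771 in late AVFs. Between 4 and 18 of the 44 members were at 0 in each contralateral vein, whereas no member was at 0 in any AVF, and 35 members were at 0 in at least 1 contralateral vein. Among all 8292 tested genes with a contralateral mean within the members' range, 54.1% likewise had a 0 in a contralateral vein. The median coefficient of variation of the members was 149% among contralateral veins and 40.8%, 19.5%, and 18.8% among early, mid, and late AVFs. Over those 8292 genes the median was 109% in the veins and 41.6%, 17.8%, and 18.8% at the successive time points. The part of low detection in the differences from contralateral veins was not tested beyond leaving libraries out.

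In early AVFs 14 of the 44 genes rose against contralateral veins and none fell. The median level over the 44 members was between 0.0869 and 11.8 CPM (counts scaled to library size) in each contralateral vein and between 25.6 and 55.6 CPM in each early AVF. It was between 19.1 and 29.0 CPM in mid and between 15.7 and 19.8 CPM in late AVFs. A difference was called at an adjusted p under 0.01 (edgeR quasi-likelihood test, Benjamini-Hochberg over all genes tested) and a log2 fold change of 1 or more in size. Early AVFs had 14 members called higher and 0 lower, against 6.17% and 6.45% of all genes tested. The 14 were 3 of 15 replication members, 9 of 26 mitotic members, and *Foxm1* and *Stmn1*. The log2 fold change was positive in 43 of 44, with *Mcm7* the exception, against 49.7% of all genes tested, and its median was 2.32, against −0.01 over all genes tested. For 16 members every early AVF was above every contralateral vein, against 4.46% of all genes tested. In bulk RNA, more cells of a dividing type and more RNA of these genes per cell cannot be told apart.

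**Figure D1:**
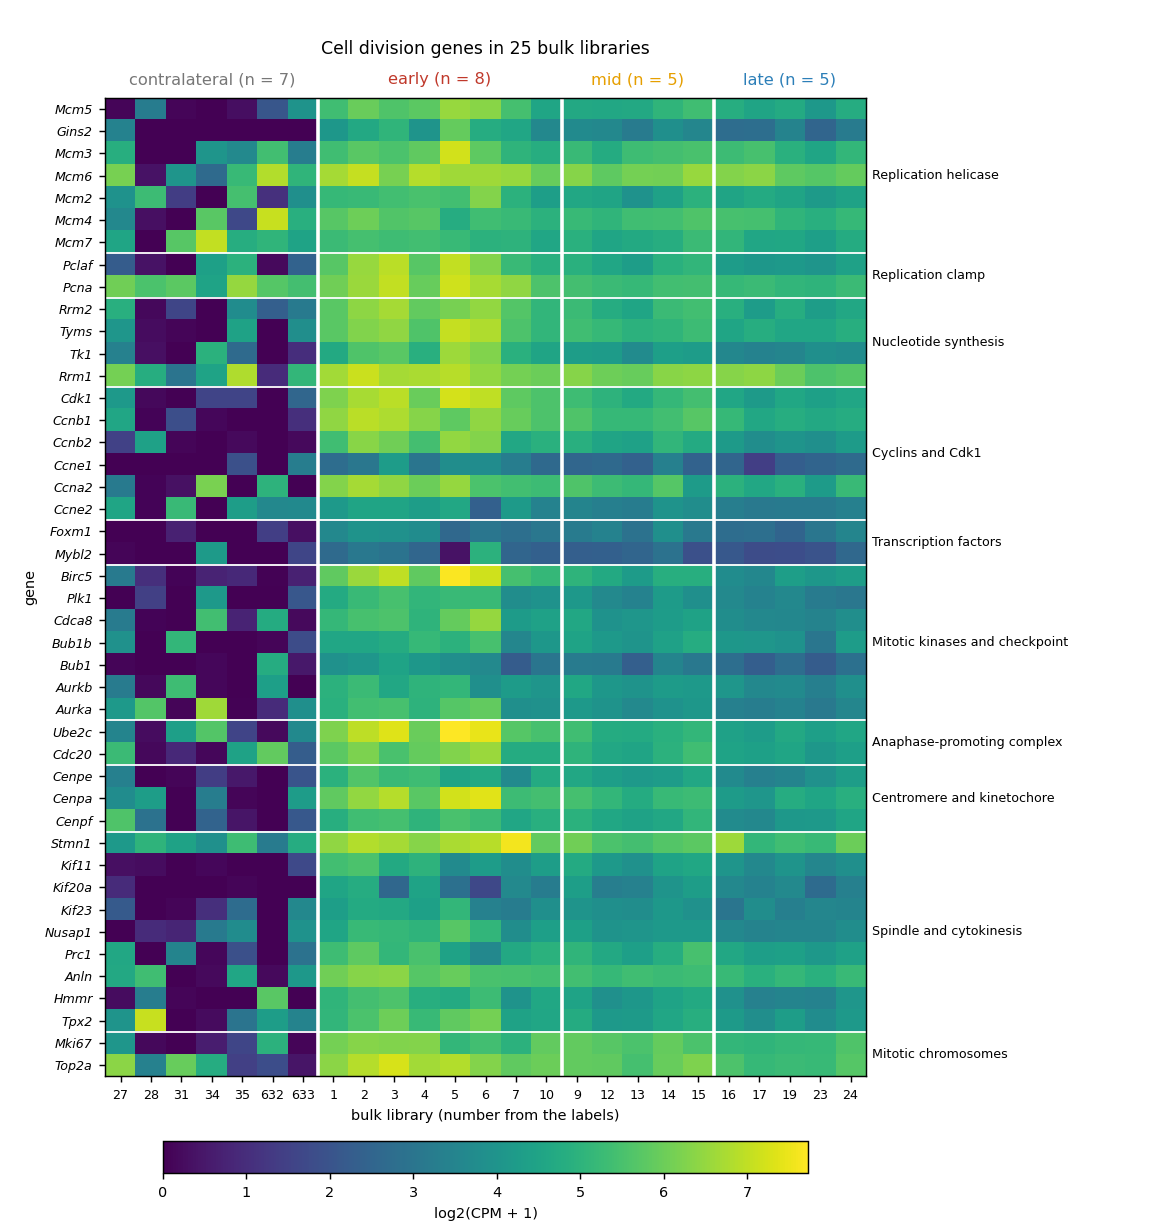
Level of each of the 44 cell division genes (rows, grouped by role) in each of the 25 bulk libraries (columns, grouped as contralateral, early, mid, and late), as log2(CPM + 1) on the color scale. Contralateral columns are low and patchy, with between 4 and 18 members at 0 in each, and the early columns are the highest for most rows.

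The helicase and its loading partners were led by *Mcm5*, a subunit of the MCM ring. Its level was 0, 0.209, and 14.6 CPM (lowest, median, and highest) in contralateral veins and 22.4, 51.0, and 91.0 CPM in early AVFs. It was 24.1, 23.9, 24.5, 32.6, and 39.9 CPM in the 5 mid AVFs and 27.3, 21.8, 25.4, 16.3, and 26.5 CPM in the 5 late AVFs. Every AVF of each time point was above every contralateral vein. The log2 fold change of early AVFs was 3.85 ± 0.92 (SE, adjusted p = 0.003, edgeR). Without the 5 contralateral libraries that held fewer than 17000 genes, it was 2.92 with an adjusted p of 0.018, and the call was lost.

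The other 6 helicase members did not pass the test. *Gins2*, part of the GINS complex that completes the active helicase, was at 0 in 6 of 7 contralateral veins and at 9.82 CPM in vein 27, and ranged from 11.2 to 58.8 CPM in early AVFs, above all contralateral veins. Its log2 fold change was 4.19 ± 1.31 with an adjusted p of 0.021 (edgeR). The remaining MCM subunits were present in most contralateral veins, and their groups overlapped. Their log2 fold changes were 1.93 for *Mcm3* (adjusted p = 0.084), 1.30 for *Mcm6* (0.10), 1.36 for *Mcm2* (0.20), 0.42 for *Mcm4* (0.76), and −0.20 for *Mcm7* (0.85, all edgeR). *Mcm7* was between 0 and 129 CPM in contralateral veins and between 22.8 and 43.0 CPM in early AVFs, and *Mcm4* was between 0 and 134 CPM and between 26.8 and 64.2 CPM.

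At the sliding clamp, *Pclaf*, a small protein that binds PCNA during replication, was 0, 3.76, and 30.5 CPM in contralateral veins and 28.6, 64.6, and 130 CPM in early AVFs. It was 28.7, 22.7, 18.6, 28.7, and 32.8 CPM in mid and 18.2, 16.1, 17.0, 15.4, and 20.5 CPM in late AVFs. The highest contralateral vein lay just above the lowest early AVF, and all late AVFs lay below all early ones. Its log2 fold change in early AVFs was 3.13 ± 0.86 (adjusted p = 0.0091, edgeR), and the call held in 5 of 25 fits that each left out 1 library. The adjusted p reached 0.018 in the others, which left out contralateral 27, 632, or 633, early 1 to 6 or 10, or any mid or late AVF. *Pcna*, the clamp itself, was present in every contralateral vein, at 21.2, 50.9, and 89.3 CPM, and at 46.9, 89.3, and 143 CPM in early AVFs, with a log2 fold change of 0.79 (adjusted p = 0.036). *Pcna* also serves DNA repair, and its contralateral level was not near 0 as it was for most members.

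Genes of deoxynucleotide supply were led by *Rrm2*, the regulated subunit of ribonucleotide reductase. Its level was 0, 4.01, and 28.6 CPM in contralateral veins and 33.0, 63.8, and 103 CPM in early AVFs. Mid AVFs were at 37.6, 26.5, 22.5, 37.3, and 40.6 CPM and late AVFs at 28.2, 18.3, 27.4, 18.5, and 24.0 CPM. All early AVFs exceeded all contralateral veins, whereas mid and late AVFs overlapped with them. The log2 fold change of early AVFs was 3.09 ± 0.77 (adjusted p = 0.0042, edgeR). *Tyms*, which makes thymidylate, ranged from 0 to 21.0 CPM in contralateral veins and from 33.3 to 133 CPM in early AVFs, also without overlap, and missed the threshold at 3.36 ± 0.98 (adjusted p = 0.013). The thymidine kinase *Tk1* (2.84, adjusted p = 0.030) and *Rrm1*, the large subunit of ribonucleotide reductase (1.35, adjusted p = 0.059), missed it as well.

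Cyclins and their kinase gave 3 calls among 6 genes, those of cyclin B and *Cdk1*. *Cdk1*, the kinase that drives entry into mitosis, was 0, 1.98, and 17.3 CPM in contralateral veins and 46.3, 89.2, and 148 CPM in early AVFs. It was 39.3, 31.2, 25.02, 34.5, and 42.1 CPM in mid and 22.6, 17.5, 23.3, 20.2, and 22.6 CPM in late AVFs. The time points did not overlap with each other or with contralateral veins. The log2 fold change was 4.61 ± 0.91 in early AVFs (adjusted p = 0.00053, edgeR), 3.19 in mid (0.019), and 2.50 in late (0.065). *Ccnb1*, a cyclin B, ranged from 0 to 23.0 CPM in contralateral veins and from 46.5 to 120 CPM in early AVFs (4.38 ± 1.03, adjusted p = 0.0028), and mid and late AVFs lay between 35.0 and 52.1 and between 23.9 and 35.3 CPM. *Ccnb2* ranged from 0 to 20.2 and from 24.0 to 87.8 CPM (4.14 ± 1.08, adjusted p = 0.006), a call lost without contralateral 27, 35, or 633, where the adjusted p reached 0.012. Cyclins that act earlier missed the threshold, with log2 fold changes of 2.11 for *Ccna2* (adjusted p = 0.15), 2.58 for *Ccne1* (0.12), and 0.22 for *Ccne2* (0.88).

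Of the transcription factors, *Foxm1*, an activator of mitotic genes, was at 0 in 4 of 7 contralateral veins and at most 1.67 CPM in the others. Early AVFs were at 5.13, 9.27, and 14.7 CPM, mid AVFs at 8.28, 9.74, 6.58, 13.4, and 7.72 CPM, and late AVFs at 5.76, 6.08, 4.65, 7.13, and 10.5 CPM. All AVFs were above all contralateral veins, and the time points overlapped with each other. The log2 fold changes were 4.71 ± 1.02 in early (adjusted p = 0.0013), 4.62 ± 1.05 in mid (0.0037), and 4.20 ± 1.04 in late AVFs (0.0079, all edgeR). *Mybl2*, which encodes B-MYB, was at 0 in 4 contralateral veins but at 17.5 CPM in another, and gave 1.51 (adjusted p = 0.41).

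Among mitotic kinases and the checkpoint, *Birc5* stood apart from its role. *Birc5* encodes survivin, a subunit of the chromosomal passenger complex. It was 0.0389, 0.719, and 8.02 CPM in contralateral veins and 34.6, 75.0, and 206 CPM in early AVFs. Mid AVFs were at 31.6, 25.1, 17.9, 27.5, and 27.7 CPM and late AVFs at 12.4, 10.96, 19.3, 16.1, and 18.5 CPM. Each time point was above all contralateral veins, and mid and late AVFs were below all early ones. The log2 fold changes were 5.86 ± 0.82 in early (adjusted p = 7.1e-06), 3.99 ± 0.78 in mid (0.00092), and 3.24 ± 0.76 in late AVFs (0.0055, all edgeR). The other subunits and kinases did not pass, with 3.25 for *Plk1* (adjusted p = 0.034), 1.97 for *Cdca8* (0.14), 1.85 for *Bub1b* (0.23), 1.74 for *Bub1* (0.31), 1.41 for *Aurkb* (0.35), and 0.46 for *Aurka* (0.75). *Aurka*, the kinase of the spindle poles, ranged from 0.0348 to 98.3 CPM among contralateral veins, a wider range than the 13.3 to 57.8 CPM of early AVFs.

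For the anaphase-promoting complex, *Ube2c*, its ubiquitin-conjugating enzyme, was 0.156, 10.1, and 49.5 CPM in contralateral veins and 43.2, 98.9, and 211 CPM in early AVFs. It was 39.6, 26.1, 25.7, 29.2, and 33.7 CPM in mid and 20.2, 18.1, 24.2, 19.6, and 22.6 CPM in late AVFs. A single contralateral vein reached into the early range, and the 3 time points were separate from each other. Early AVFs were higher by 3.08 ± 0.75 on the log2 scale (adjusted p = 0.0035, edgeR). *Cdc20*, the activator of the complex, gave 1.70 (adjusted p = 0.13).

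At the centromere, *Cenpe*, a kinesin of the kinetochore, was 0, 0.417, and 9.39 CPM in contralateral veins and 11.8, 27.6, and 48.4 CPM in early AVFs. It was 23.6, 19.0, 16.7, 18.5, and 24.0 CPM in mid and 12.0, 9.33, 10.2, 14.0, and 18.7 CPM in late AVFs. Early and mid AVFs were all above contralateral veins, and 1 late AVF was just below the highest of them. In early AVFs *Cenpe* was higher by a log2 fold change of 3.83 ± 0.92 (adjusted p = 0.0031, edgeR). *Cenpa*, the centromeric histone, ranged from 0 to 18.8 CPM in contralateral veins and from 38.1 to 166 CPM in early AVFs (3.40 ± 0.92, adjusted p = 0.008). This call held in 9 of 25 fits that left out 1 library. The adjusted p reached 0.014 in the others, which left out contralateral 27, 34, or 35, early 2, 3, 5, 6, or 10, any mid AVF, or late 16, 19, or 23. *Cenpf* gave 1.96 (adjusted p = 0.13).

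Spindle and cytokinesis genes gave 3 calls among 9. *Stmn1*, which destabilizes microtubules, was 8.21, 21.1, and 39.3 CPM in contralateral veins and 57.3, 104, and 194 CPM in early AVFs. It was 65.3, 45.4, 41.8, 49.3, and 54.1 CPM in mid and 96.1, 33.9, 40.3, 36.1, and 63.0 CPM in late AVFs. It was detected in every vein, early and mid AVFs were above all of them, and late AVFs overlapped with them. Its log2 fold change in early AVFs was 2.25 ± 0.33 (adjusted p = 1.5e-05, edgeR), the smallest SE among these leading genes. The kinesins *Kif11*, which separates the spindle poles, and *Kif20a*, which acts in cytokinesis, were at 0 in 3 and 5 of the 7 contralateral veins. *Kif11* was at most 2.26 CPM in contralateral veins and between 12.0 and 45.4 CPM in early AVFs, with a log2 fold change of 5.98 ± 0.99 (adjusted p = 6.6e-05). *Kif20a* was at most 0.939 CPM in contralateral veins and between 2.18 and 26.8 CPM in early AVFs, with 6.44 ± 1.13 (adjusted p = 0.00013). Folds this large rest on contralateral counts at or near 0. The other 6 gave 2.64 for *Kif23* (adjusted p = 0.034), 2.53 for *Nusap1* (0.037), 2.39 for *Prc1* (0.057), 1.98 for *Anln* (0.086), 1.82 for *Hmmr* (0.27), and 0.72 for *Tpx2* (0.58).

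The usual markers of dividing cells, which act on mitotic chromosomes, did not reach the threshold. *Mki67*, which coats mitotic chromosomes, was 0, 0.539, and 30.2 CPM in contralateral veins and 30.2, 63.0, and 79.6 CPM in early AVFs. It was 57.9, 51.9, 45.8, 59.0, and 45.6 CPM in mid and 34.0, 32.5, 34.5, 35.1, and 47.8 CPM in late AVFs. Every AVF was above every contralateral vein, by a narrow margin for the lowest early AVF. The log2 fold changes were 3.06 ± 0.92 in early (adjusted p = 0.017), 2.90 in mid (0.048), and 2.40 in late AVFs (0.11, all edgeR). *Top2a*, the topoisomerase that untangles chromosomes, ranged from 0.342 to 82.5 CPM in contralateral veins and from 56.8 to 152 CPM in early AVFs (1.87, adjusted p = 0.042).

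**Figure D2:**
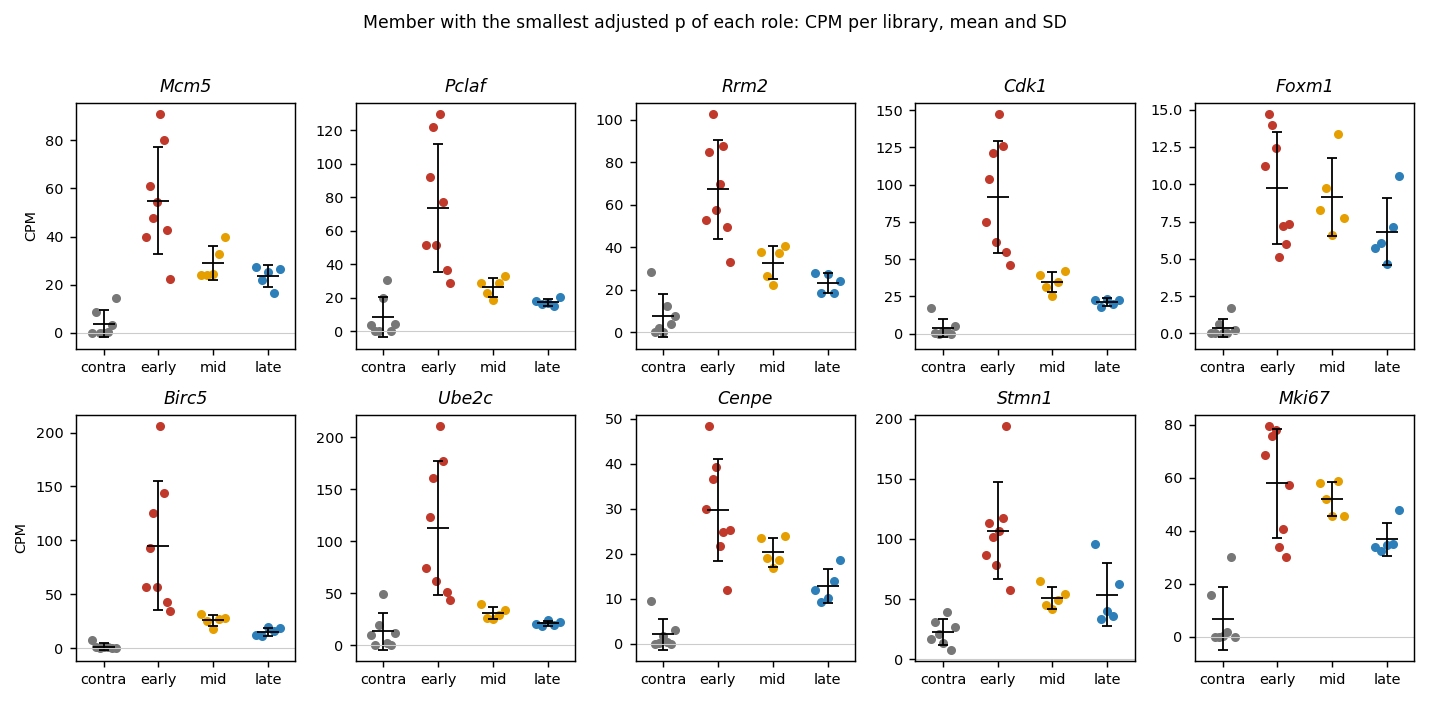
Level in CPM of the member with the smallest adjusted p in each of 10 roles, with a point for each library and the mean and SD of each group (contralateral, early, mid, and late). Early AVFs are the highest group for each leader by mean, and the contralateral points are mostly below the early ones, with single veins as high as 49.5 CPM for *Ube2c*, 30.5 CPM for *Pclaf*, and 30.2 CPM for *Mki67*. *Stmn1* is detected in every contralateral vein, at 8.21 to 39.3 CPM.

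The number of calls depended on libraries with few genes. Without the 5 contralateral libraries with fewer than 17000 genes, which leaves veins 27 and 633, 23 members were called higher in early AVFs (9.36% of genes tested), 13 of them among the 14. The same fit called 7 higher in mid (5.41%) and 6 in late AVFs (4.84%), and 15 lower in late than in early AVFs (7.45%). Without early 5 and 6, which held fewer than 20000 genes, 8 were called (4.23%), 4 in mid (2.9%), 4 in late AVFs (2.75%), and 0 lower in late than in early AVFs (0.292%). Without all 7 of these libraries 24 were called (9.88%), 10 in mid (7.71%), and 7 in late AVFs (7.05%), with 1 lower in mid (0.615%) and 15 lower in late (3.97%) than in early AVFs. DESeq2 on all libraries called 24 members higher in early (9.81%), 10 at the mid (4.92%), and 5 at the late time point (4.48%), with 1 lower in mid (3.3%) and 2 lower in late (4.61%) than in early AVFs and 0 in late against mid (0.00789%). At an adjusted p under 0.05 edgeR called 22 (9.66%), 10 (4.88%), and 5 (4.59%) higher, and 1 (3.24%) and 2 (4.63%) lower. Of the 14 calls, 11 held in each of 25 fits that left out 1 library (*Birc5*, *Ccnb1*, *Cdk1*, *Cenpe*, *Foxm1*, *Kif11*, *Kif20a*, *Mcm5*, *Rrm2*, *Stmn1*, and *Ube2c*). Within female mice alone 2 members were called higher (1.78% of genes tested), *Bub1* and *Kif11*, and within male mice alone 10 (3.72%), with fewer libraries in each. *Bub1*, not called in the fit of all libraries, was 26.3 CPM in male contralateral vein 632 and at most 0.41 CPM in the other contralateral veins. No member differed between the sexes in its early change at an adjusted p under 0.01 (edgeR), against 10 of 12673 genes tested. At an unadjusted p under 0.05, 6 members did. The share of all genes at that cutoff was not taken, so the 6 cannot be set against a background.

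Marker genes of several other cells moved with the early rise. The summed level of 10 monocyte and macrophage markers was 899 to 2833 CPM in contralateral veins and 3684 to 13426 CPM in early AVFs, and 8 of the 10 were called higher. The 7 neutrophil markers summed to 58.3 to 256 CPM and 269 to 4541 CPM, with 5 called higher. T and NK cell markers, 8 genes, overlapped, at 15.8 to 156 CPM and 7.70 to 121 CPM. No monocyte, macrophage, or neutrophil marker was at 0 throughout a group. Markers of the vein wall were present in every contralateral vein, where SMC markers summed to 9675 to 21188 CPM and endothelial cell (EC) markers to 2104 to 3462 CPM. These sums were 1053 to 2625 CPM and 298 to 595 CPM in early AVFs. Early 5 and 6, the libraries with the fewest genes among early AVFs, held the highest monocyte and macrophage sums (11724 and 13426 CPM). Early 5 was the highest early AVF for 15 members, early 2 for 13, and early 6 for 8. Early 5 and early 6 were also each the lowest early AVF for 4 members. Of 7 fibroblast markers 4 were called lower in early AVFs, where they summed to 2309 to 19553 CPM against 13147 to 32571 CPM in contralateral veins. All 5 skeletal muscle markers were called higher in early, mid, and late AVFs, with sums of 0.209 to 30.7 CPM in contralateral veins and 5.05 to 3974 CPM in early AVFs. Thyroid and parathyroid markers reached 13982 CPM in early 1, nearly all of it *Pth*, and were at most 78.0 CPM in the other early AVFs. The part of these cells in the rise of the cell division genes was not tested in bulk RNA.

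Mid and late AVFs were compared with the same 7 contralateral veins, so the 3 comparisons share their controls. In mid AVFs 4 members were called higher, against 2.74% of genes tested, and in late AVFs 4, against 2.49%. In both they were *Birc5*, *Foxm1*, *Kif11*, and *Kif20a*. *Kif11* was 25.2, 16.9, 14.1, 21.2, and 23.3 CPM in mid and 15.4, 11.3, 14.8, 10.6, and 13.4 CPM in late AVFs, all above the highest contralateral vein. Its log2 fold changes were 5.64 ± 1.00 (adjusted p = 0.00034) and 5.02 ± 0.98 (0.0011, edgeR). *Kif20a* was 19.2, 8.81, 9.52, 14.9, and 18.5 CPM in mid and 11.3, 9.64, 11.5, 5.51, and 9.29 CPM in late AVFs, likewise without overlap. It gave 6.56 ± 1.16 (adjusted p = 0.00033) and 5.97 ± 1.14 (0.00086). The 4 genes were low in all contralateral veins, at no more than 8.02 CPM.

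Of the calls in mid and late AVFs, those of *Kif11* and *Kif20a* and the mid call of *Birc5* held in each of 25 fits that left out 1 library. Without the 5 contralateral libraries with fewer than 17000 genes, *Birc5* was not called in mid (2.61, adjusted p = 0.024) or late AVFs (1.88, 0.092), nor *Kif20a* in late AVFs (4.37, 0.014, edgeR). The late call of *Birc5* was lost without contralateral 34 or 35 or late 19, 23, or 24, with an adjusted p of up to 0.014. The late call of *Foxm1* held in 9 of 25 fits and was lost, with an adjusted p of up to 0.020, without contralateral 35 or 633, early 1, 2, 4, or 10, or any mid or late AVF. Its mid call was lost without mid 14 (0.010). Without contralateral 27 the calls numbered 8 in mid and 8 in late AVFs. The median log2 fold change of the 44 was 1.44 in mid and 1.06 in late AVFs, against −0.10 and −0.09 over all genes tested, and 39 members were positive in each, against 45.9% and 46.3% of genes tested. Non-overlap above contralateral veins was found for 15 members in mid AVFs (7.32% of genes tested) and 9 in late AVFs (6.25%).

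Levels in late AVFs were below those in early AVFs for every member, and the number that passed the test turned on which libraries were fitted together. All 44 members had a negative log2 fold change of late against early AVFs, where 50.5% of genes tested were positive, with a median log2 fold change of −1.27, against 0.01 over all genes tested. For 21 members every late AVF was below every early AVF, against 8.36% of genes tested. The fit of all 25 libraries called *Pcna* lower in late AVFs and no other member, against 2.28% of genes tested. A count of 1 of 44 is near that background and is no result about the members as a set. *Pcna* was 42.1, 37.6, 35.4, 40.9, and 41.6 CPM in mid and 35.5, 37.9, 33.0, 31.8, and 37.6 CPM in late AVFs, all late values below the lowest early AVF. Its log2 fold change from early to late was −1.36 ± 0.31 (adjusted p = 0.0069, edgeR). This call was lost in 11 of 25 fits, without early 2, 3, 5, 6, or 7, mid 12, or any late AVF, with an adjusted p of up to 0.025. A fit of the 18 AVF libraries alone, chosen after values were seen, took no estimate of spread from the contralateral veins.

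In the 18 AVF libraries alone, 26 of the 44 members were called lower in late than in early AVFs, against 8.35% of genes tested. They included *Cdk1* (−2.11 ± 0.27, adjusted p = 0.00018), *Birc5* (−2.63 ± 0.40, 0.00045), *Ube2c* (−2.43 ± 0.37, 0.00042), and *Pclaf* (−2.08 ± 0.33, 0.0006, all edgeR). *Rrm2* fell by 1.53 (0.0007), *Pcna* by 1.37 (0.00073), *Mcm5* by 1.23 (0.0032), and *Cenpe* by 1.204 on the log2 scale (0.0032). The members not called included *Mki67* (−0.65, adjusted p = 0.032), *Stmn1* (−0.98, 0.013), *Kif11* (−0.95, 0.019), *Foxm1* (−0.51, 0.20), *Kif20a* (−0.45, 0.47), and *Mcm4* (−0.25, 0.31). Without early 5 and 6 this fit also called 26 lower (5.06% of genes tested). Monocyte and macrophage markers summed to 2323 to 4371 CPM in late AVFs, and neutrophil markers to 121 to 277 CPM, below most early AVFs, and their part in the fall was not tested.

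Between the other neighbors in time the differences were smaller. In mid against early AVFs the fit of 25 libraries called 0 members with edgeR, against 0.0% of genes tested called lower. At an unadjusted p under 0.05 there were 4 members, with no share of all genes taken at that cutoff. DESeq2 called 1, against 3.3% of genes tested called lower. The fit of AVF libraries alone called 7 lower (2.86%). The log2 fold change was negative for 43 of 44 members, where 50.1% of genes tested were positive, with a median log2 fold change of −0.85, and 5 members were without overlap (5.24%). In late against mid AVFs edgeR called 0 members in either fit, with 0 at an unadjusted p under 0.05 in the 25-library fit and 0 by DESeq2, and 0.0% of genes tested were called lower. The median log2 fold change was −0.53, and 43 of 44 members were negative, where 49.6% of genes tested were positive. In 7 members the groups did not overlap (1.04%): *Tyms*, *Ccnb2*, *Cdk1*, *Aurka*, *Cdca8*, *Ube2c*, and *Nusap1*.

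**Figure D3:**
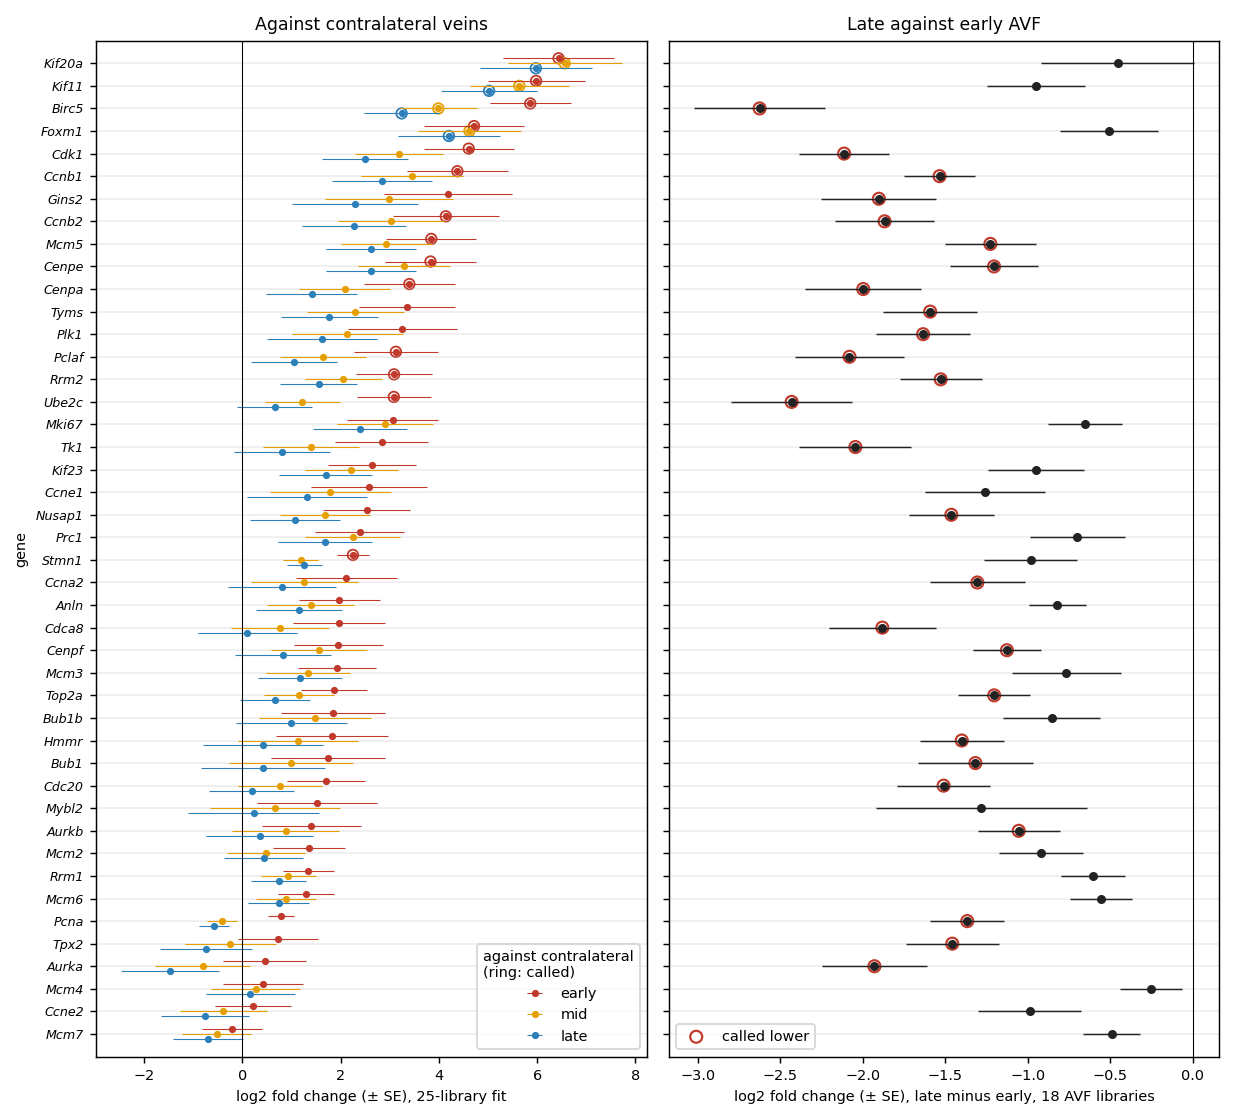
Log2 fold change of each of the 44 members with its SE, on the left for early, mid, and late AVFs against contralateral veins in the fit of 25 libraries (rings mark called values), and on the right for late against early AVFs in the 18 AVF libraries alone. On the left 43 members are positive in early AVFs, with wide errors, and on the right the errors are narrower and 26 members are called lower.

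Other genes of the cell cycle were held in lists beside the 44, and their difference from the 44 was not tested. Of 22 tested genes of other replication factors 2 were called higher in early AVFs and 0 lower, with a median log2 fold change of 1.11. Over all genes tested 6.17% were called higher and 6.45% lower, so a count of 2 of 22 is near the background. *Mcm10*, which helps to fire origins, was at most 0.157 CPM in contralateral veins and 3.51, 8.45, and 16.0 CPM in early AVFs (7.73 ± 0.95, adjusted p = 1.1e-06). *Lig1*, which joins Okazaki fragments, gave 2.45 ± 0.66 (adjusted p = 0.0075). Of 36 other mitotic genes 7 were called higher (median 1.67). *Melk*, a mitotic kinase, was at most 0.12 CPM in contralateral veins and between 8.34 and 18.8 CPM in early AVFs (8.85 ± 0.91, adjusted p = 7.6e-08). *Cdca5*, which encodes the cohesin protector sororin, was at 0 in all 7 contralateral veins and between 2.48 and 13.5 CPM in early AVFs, so no fold is given. *Gtse1* gave 4.80 ± 1.05 (adjusted p = 0.0014, edgeR). The securin gene *Pttg1* went the other way, at −1.82 (adjusted p = 0.0035) in mid and −1.75 (0.0051) in late AVFs.

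Genes that bring cells into the cycle or hold them out of it gave few calls, beside 6.17% called higher and 6.45% called lower over all genes tested, and lists this short cannot be set apart from that background by their counts. Of 12 G1 cyclins, kinases, and E2F factors 2 were called higher in early AVFs (median log2 fold change 0.70), *E2f7*, a repressor of E2F targets (6.54 ± 1.10, adjusted p = 7.8e-05), and *Cdk4* (1.12 ± 0.31, 0.0097, edgeR). *Ccnd1*, cyclin D1, was 0, 0.39, and 24.3 CPM in contralateral veins and 31.7, 36.3, and 51.4 CPM in early AVFs. These groups did not overlap, and the log2 fold change was 3.05 ± 0.98 with an adjusted p of 0.025. Of 14 tested inhibitor and quiescence genes 1 was called higher and 1 lower (median −0.21). *Cdkn1a*, the inhibitor p21, was 13.9, 39.8, and 86.7 CPM in contralateral veins and 133, 183, and 520 CPM in early AVFs, without overlap. It was higher by 2.19 ± 0.34 in early (adjusted p = 2.4e-05), 1.96 in mid (0.00049), and 1.72 in late AVFs (0.002, edgeR). *Gas1*, a growth arrest gene, was lower by −1.61 ± 0.39 in early AVFs (adjusted p = 0.0033). *Cdkn1b* (−1.09, adjusted p = 0.059) and *Cdkn1c* (−0.31, 0.83) did not pass.

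Single-cell RNA was used to ask which cells carried these transcripts. Each condition was 1 library of pooled vessels, so no test was made, and intervals cover counting error only. Of 26438 barcodes 16893 were kept, 6319 from contralateral veins, 4753 from early AVFs, and 5821 from late AVFs, with medians of 2751, 8951, and 15425 unique molecular identifiers (UMIs) per cell. The libraries shared 14 to 19 barcodes by pairs, and 5 or 6 after filtering. Of 16 clusters 13 were named from marker genes, and cell cycle genes and markers had been left out of clustering. Cells were thinned to 1000 UMIs before shares were compared, which left out 1172 contralateral, 433 early, and 389 late cells. A cell with at least 3 of the 26 mitotic members was counted as mitotic-gene positive. Neutrophil-like cells, which do not divide in tissue, held 0 of 57, 0 of 743, and 0 of 259 such cells, which allows shares of up to 5.26%, 0.404%, and 1.16% by a limit of 3 cells and 6.27%, 0.495%, and 1.41% by the exact binomial interval. Their median depth before thinning was 3160, 3463, and 3357.5 UMIs. Without thinning 0 of 63, 12 of 782 (1.53%), and 3 of 286 (1.05%) neutrophil-like cells were positive. The doublet caller marked 0%, 0.0421%, and 1.94% of barcodes and had not worked in the first and second of these libraries, so doublets were kept.

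Mitotic-gene positive cells were a small minority in every library. Their share was 0.525% of contralateral cells (27 of 5147, 95% exact binomial interval 0.346 to 0.762%), 2.08% of early cells (90 of 4320, 1.68 to 2.55%), and 1.10% of late cells (60 of 5432, 0.844 to 1.42%). The intervals did not overlap. With at least 5 mitotic members the shares were 0.369% (0.222 to 0.576%), 1.06% (0.781 to 1.42%), and 0.663% (0.465 to 0.916%), and the late interval overlapped with both others. Without thinning the shares were 1.25%, 10.3%, and 6.37%. Over 20 draws of the thinning the shares ranged from 0.486 to 0.641%, from 1.92 to 2.25%, and from 0.939 to 1.27%. Replication members, which were not used to call the positive cells, averaged 2.33 UMIs per thinned positive cell and 0.181 per other cell in contralateral veins. These averages were 1.43 and 0.204 in early and 1.53 and 0.178 in late AVFs. The contrast differed between classes of the early library. It was 1.83 against 0.221 in monocyte- and macrophage-like cells, but 0.56 against 0.167 in fibroblast-like cells. In an unnamed cluster led by *Pth* it was 0.6 against 0.311. Before thinning and over all classes together, positive cells held more UMIs than other cells, with medians of 5534 against 3584.5, 19089 against 10409.5, and 20932.5 against 16667. Within classes the order differed. In the early library it was 27576 against 12915.5 in monocyte- and macrophage-like cells and 30443.5 against 31915 in fibroblast-like cells.

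In fibroblast-like cells the early library had the highest share of mitotic-gene positive cells. The share was 0.128% in contralateral veins (2 of 1564, 0.0155 to 0.461%) and 3.88% in early AVFs (16 of 412, 2.24 to 6.23%). In late AVFs it was 0 of 1982 cells, which allows a share of up to 0.151% by the limit of 3 cells and 0.186% by the exact binomial interval. Without thinning the shares were 0.648%, 18.9%, and 2.02%, in cells with median depths of 4363, 31839, and 25091.5 UMIs. Different clusters made up this class: a cluster led by *Inmt*, *Dcn*, and *Col1a1* held 1698 contralateral, 2 early, and 43 late cells, and a cluster led by *Ptx3*, *Col3a1*, and *Serping1* held 153, 410, and 1941. Within the latter the thinned shares were 0 of 152, 16 of 410 (3.90%), and 0 of 1939 cells.

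The summed level of the 26 mitotic members in fibroblast-like cells gave the same order. Levels are given as CPM of the UMIs in a class (UMI CPM). It was 50.9 UMI CPM in contralateral veins (95% exact Poisson interval 47.1 to 54.9), 268 in early AVFs (259 to 278), and 25.2 in late AVFs (23.9 to 26.7). *Mki67* was 3.87 (2.87 to 5.10), 21.2 (18.6 to 24.0), and 2.60 (2.17 to 3.08) UMI CPM, and *Stmn1* was 7.66, 44.7, and 7.72. *Birc5* was 1.55, 19.9, and 1.11, and *Cdk1* was 1.16, 13.2, and 0.972. All 26 mitotic members were lower in the late than in the early library. Replication members moved less, with 148, 181, and 110 UMI CPM in sum. *Pcna* was 52.0, 42.5, and 40.9, below the contralateral level in the early library, whereas *Pclaf* was 2.40, 9.12, and 0.635.

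Monocyte- and macrophage-like cells (mono/macro-like) had shares whose intervals overlapped in all 3 libraries. The share was 1.02% in contralateral veins (6 of 587, 0.376 to 2.21%), 1.45% in early AVFs (30 of 2074, 0.978 to 2.06%), and 1.61% in late AVFs (26 of 1611, 1.06 to 2.36%). Without thinning the shares were 2.40%, 11.8%, and 9.41%. The contralateral cells lay mostly in a cluster led by *F13a1*, *Cd209f*, and *Mrc1* (633, 23, and 14 cells), and the AVF cells in clusters led by *Lyz2*, *Il1b*, and *Cd14* (18, 1626, and 1067) and by *Lyz2*, *Ccl8*, and *C1qb* (57, 457, and 545). In the *Il1b* cluster 21 of 1596 early cells (1.32%) and 18 of 1053 late cells (1.71%) were positive, and in the *F13a1* cluster 5 of 512 contralateral cells (0.977%).

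By summed level the mitotic members of mono/macro-like cells were at 146 UMI CPM in contralateral veins (134 to 160), 271 in early (265 to 277), and 326 in late AVFs (319 to 333). *Mki67* was 12.8, 41.7, and 56.6 UMI CPM and *Top2a* 16.3, 24.96, and 38.5, each highest in the late library. *Cdk1* was 5.81, 14.0, and 10.8, and *Birc5* was 3.49, 15.1, and 14.0. From early to late 23 members were higher and 21 lower, whereas over all cells 44 of 44 were lower in late AVFs. Replication members summed to 315, 298, and 295 UMI CPM. *Kif23* was 18.6, 7.07, and 12.4 in mono/macro-like cells and 27.7, 20.2, and 37.0 in neutrophil-like cells. In the early and late libraries its level in mono/macro-like cells was thus below that of cells that do not divide. The contralateral neutrophil-like value came from 63 cells, with too few UMIs to place it above the mono/macro-like value.

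T and NK-like cells had a higher summed level of mitotic members than mono/macro-like and fibroblast-like cells in each library. The share of positive cells was 1.61% in contralateral veins (9 of 559, 0.739 to 3.03%), 8.02% in early AVFs (13 of 162, 4.34 to 13.3%), and 3.39% in late AVFs (19 of 561, 2.05 to 5.24%). Mitotic members summed to 648 UMI CPM (619 to 678), 1655 (1585 to 1727), and 785 (759 to 812). *Stmn1* was 129, 386, and 157, and *Pclaf* was 36.1, 162, and 45.5. All 44 members were higher in the early than in the contralateral library in these cells. The class was 162 of 4320 early cells, and of the 5 bulk T and NK markers tested 0 were called in early AVFs by edgeR.

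Smaller classes were limited by cell number. EC-like cells were positive in 2 of 610 contralateral cells (0.328%), 3 of 63 early cells (4.76%, 0.993 to 13.3%), and 0 of 71 late cells. SMC-like cells were positive in 0 of 30, 1 of 227 (0.441%), and 1 of 506 (0.198%). An unnamed cluster led by the parathyroid hormone gene *Pth*, *Chga*, and *Cfd* had 0 of 27, 20 of 290 (6.90%, 4.26 to 10.5%), and 6 of 192 (3.13%) positive cells. Thinning left out 13, 242, and 275 cells of this cluster. Over all its 40, 532, and 467 cells the median depths were 1260, 1118, and 872 UMIs. Among the positive cells themselves, mono/macro-like cells made up 22.2% in contralateral veins, 33.3% in early, and 43.3% in late AVFs. T and NK-like cells made up 33.3%, 14.4%, and 31.7%. Fibroblast-like cells made up 17.8% in early AVFs and 0% in late AVFs, and the *Pth* cluster made up 22.2% in early AVFs.

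**Figure D4:**
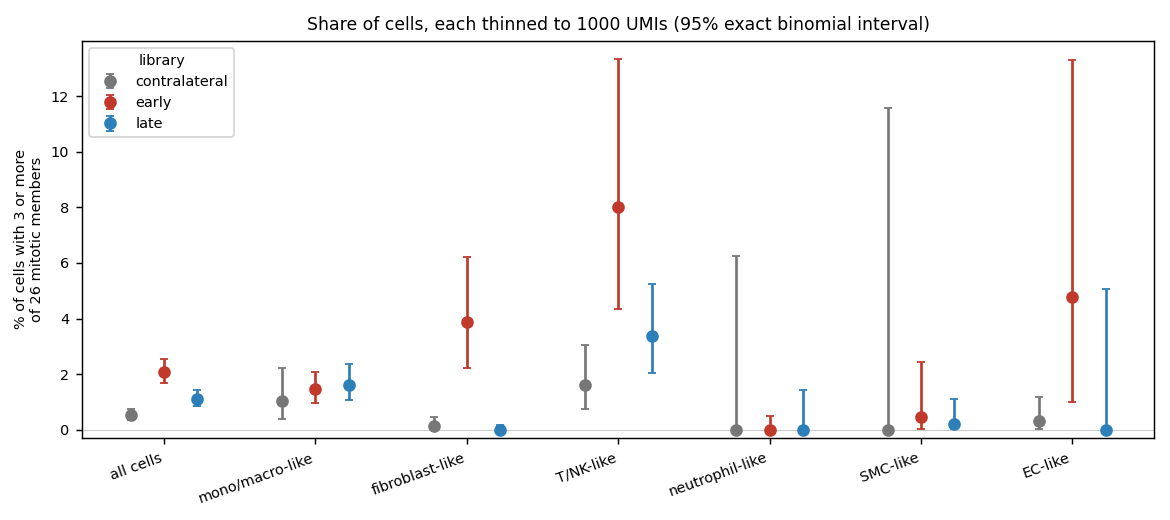
Percent of cells with at least 3 mitotic members after thinning to 1000 UMIs in the contralateral, early, and late libraries, with 95% exact binomial intervals (counting error only). Shown are all cells and mono/macro-like, fibroblast-like, T and NK-like, neutrophil-like, SMC-like, and EC-like cells, and the other classes are not drawn. The early library is highest for all cells (2.08%), fibroblast-like (3.88%), and T and NK-like cells (8.02%), while the mono/macro-like intervals overlap.

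**Figure D5:**
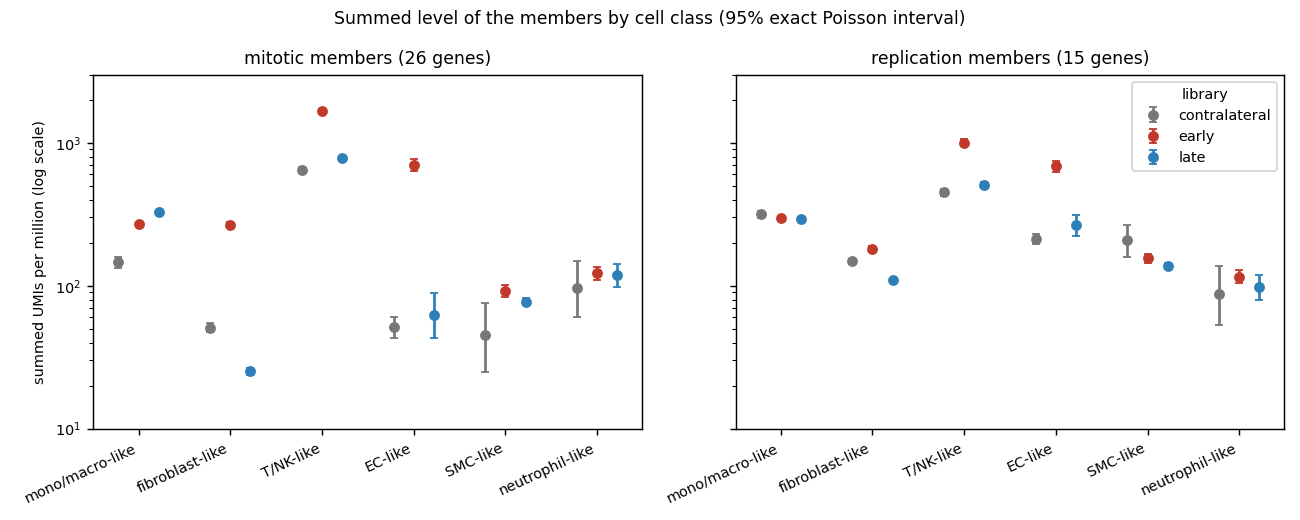
Summed level of the 26 mitotic members and the 15 replication members in each library, in UMI CPM on a log axis, with 95% exact Poisson intervals (counting error only). Shown are mono/macro-like, fibroblast-like, T and NK-like, EC-like, SMC-like, and neutrophil-like cells, and the other classes are not drawn. The mitotic sum of fibroblast-like cells goes from 50.9 to 268 and back to 25.2, and that of mono/macro-like cells from 146 to 271 and 326.

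Members differed in how closely they marked cells with other mitotic genes. Of cells with a UMI of *Bub1*, a checkpoint kinase, 81.2% held at least 3 other mitotic members, counted over all libraries without thinning. For *Hmmr* this was 74.7%, for *Kif20a* 68.3%, and for *Plk1* 67.2%. For *Pclaf* it was 55.4%, for *Top2a* 36.3%, for *Mki67* 28.6%, and for *Stmn1* 21.9%. It was 10.3% for *Pcna* (6588 cells) and 13.2% for *Cenpa* (2298 cells). The libraries differ in depth and the order of members differed between them. In contralateral, early, and late libraries *Bub1* gave 76.5%, 77.3%, and 87.0%, *Plk1* 44.4%, 72.8%, and 67.9%, and *Pcna* 3.36%, 16.2%, and 9.10%. *Cenpa* was at 23.1, 36.2, and 48.7 UMI CPM in neutrophil-like cells and *Pcna* at 73.8, 80.3, and 65.2, so both were also read in cells that do not divide. *Hmmr* in fibroblast-like cells was 0.619, 9.89, and 0.179 UMI CPM.

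Inhibitors and cyclin D1 were read in the same cells. *Cdkn1a* was 111, 277, and 286 UMI CPM over all cells of the contralateral, early, and late libraries. It was 148, 405, and 593 in mono/macro-like and 44.6, 69.3, and 170 in fibroblast-like cells. Not every class rose in the early library, with 239, 162, and 235 in T and NK-like cells. In EC-like cells *Cdkn1a* was 73.4, 50.5, and 182, and in SMC-like cells 77.8, 76.8, and 175. *Cdkn1c*, the inhibitor p57, was 47.3, 225, and 105 in fibroblast-like cells. It was lower in the AVF libraries in mono/macro-like (11.6, 2.84, and 5.23) and EC-like cells (50.5, 11.9, and 17.6). *Ccnd1* was 76.4, 39.3, and 44.3 over all cells, lower in the AVF libraries, whereas in bulk RNA its early AVFs were all above contralateral veins.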

How the data were processed

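For bulk RNA the table that the authors deposited holds raw read counts, with no normalization, from poly(A) libraries made with an ultra-low input protocol, 1 per vessel. For single cells the deposited matrices hold UMI counts from Cell Ranger for barcodes it called as cells. The submitters' processing notes name Cell Ranger, STAR, GRCm38, and mm10, without a role for each, and the counter of the bulk reads is not given in the sources used here. Of 56980 bulk genes 37829 had a count. Gene identifiers were named from the single-cell gene lists (32210) or the reference annotation (19962).

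Tests covered the 12673 genes whose normalized count (DESeq2 size factors) averaged 100 or more, by the quasi-likelihood test of edgeR 4.0.16 (TMM scaling, a mean per group, all 25 libraries, common dispersion 0.710) in R 4.3.3, and *p* values were adjusted by Benjamini-Hochberg. CPM are counts over TMM-scaled library sizes. Vessels were taken as replicates, since each library came from 1 vessel. DESeq2 1.42.0, other filters and scalings, a sex term, and fits without libraries were alternatives.

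Single cells were kept if they had 200 to 6000 genes and no more than 10% mitochondrial UMIs, scaled to 10000, log-transformed, and clustered on 2000 variable genes, 12 principal components, and 20 neighbors (leidenalg 0.10.2, resolution 0.5, scanpy 1.11.5, Python 3.11.15). The rule for naming clusters was taken from an earlier analysis of these data, where it was revised after names had been seen. A class level was the summed UMIs of its cells as CPM.

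The members and gene lists were chosen with earlier results of these data known. In each role the member with the smallest adjusted *p* in early AVFs was given in full, and from each other list up to 3 called genes with the largest fold, besides *Cdkn1a*, *Cdkn1b*, *Cdkn1c*, and *Ccnd1*. The bulk test was checked on simulated counts. Of genes changed there in early against contralateral libraries, it recovered 1 of 67 at 2-fold, 29 of 67 at 4-fold, and 54 of 66 at 16-fold. It called 0 of 12473 unchanged genes. A member that missed the threshold is therefore not shown to be unchanged. The simulated counts had 1 dispersion per gene, shared by all groups. They did not carry the wider spread and the many 0 values of the contralateral veins. The recovery and the 0 false calls therefore do not give the rates of the test on the real libraries. Reads of antisense or overlapping genes cannot be told apart where counting ignored strand.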

Additional observations from a re-analysis of the deposited data

Results flagged for a closer look

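The 44 members in 4 groups gave 176 groups of values. Of these, 30 had 1 library far from the others, with a gap of over Dixon's 95% critical value. The value given is the gap to the nearest library as a share of the range of the group. Of the 30, 21 lay in contralateral veins. Chance alone gives about 1 in 20 only where values follow a normal distribution. Among contralateral veins the members' median coefficient of variation was 149%, too wide for a normal distribution of values that cannot be negative. The chance rate for such values is not known, so the count of 30 cannot be set against chance and does not show faulty libraries.

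In contralateral vein 27 the highest value stood apart for *Birc5* (0.872, 8.02 CPM against 1.06 in the next vein), *Ccnb1* (0.887), *Cdk1* (0.717), *Cenpe* (0.676), *Cenpf* (0.863, 47.1 against 6.47 CPM), *Gins2* (1, 9.82 against 0 CPM), and *Kif20a* (0.926). In vein 34 it stood apart for *Mcm7* (0.601), *Mybl2* (0.881), *Plk1* (0.808), *Tk1* (0.684), and *Ube2c* (0.611). In vein 632 it stood apart for *Bub1* (0.984, 26.3 against 0.41 CPM), *Foxm1* (0.611), *Hmmr* (0.839), and *Mcm4* (0.603). In vein 28 these were *Ccnb2* (0.911) and *Tpx2* (0.86, 134 against 18.6 CPM), in vein 633 *Ccne1* (0.689) and *Kif11* (0.896), and in vein 31 *Bub1b* (0.591). The veins that stood apart differed from gene to gene.

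Among early AVFs the highest value stood apart for *Gins2* (0.558) and *Mcm3* (0.748, 145 against 56.6 CPM) in early 5, *Mcm2* (0.573) and *Mybl2* (0.761) in early 6, and *Stmn1* (0.558, 194 against 118 CPM) in early 7. Among mid AVFs it stood apart for *Ccne1* in mid 14 (0.795), and the lowest value for *Tk1* in mid 13 (0.746). Among late AVFs it stood apart for *Ccnb1* in late 16 (0.72) and *Mki67* in late 24 (0.833, 47.8 against 35.1 CPM).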

How the results depend on the processing

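Values of the members spread most among contralateral veins, most of which held fewer genes than any AVF. No paired analysis was possible because the vessels carry no replicate numbers shared between groups. No fold change of a called member reversed under any alternative. The order of early and late mono/macro-like shares, whose intervals overlapped, turned without thinning (11.8% and 9.41%).

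In the order early, mid, and late against contralateral veins, mid against early, late against early, and late against mid, the number of members called was 14, 4, 4, 0, 1, and 0. It was 24, 10, 5, 1, 2, and 0 with DESeq2 and 22, 10, 5, 1, 2, and 0 at an adjusted *p* under 0.05. In female mice alone it was 2, 2, 2, 0, 0, and 0, in male mice alone 10, 5, 4, 0, 0, and 0, with a sex term 11, 4, 4, 0, 0, and 0, and with filterByExpr 14, 5, 5, 0, 0, and 0. With RLE scaling it was 14, 4, 4, 0, 1, and 0. Of other alternatives chosen after seeing the data, leaving out the contralateral libraries with the fewest genes gave 23, 7, 6, 5, 15, and 0. In that fit 3.09% of genes tested were called lower in mid than in early AVFs. Leaving out early 5 and 6 gave 8, 4, 4, 0, 0, and 0, and leaving out both sets gave 24, 10, 7, 1, 15, and 0. The AVF libraries alone gave 7, 26, and 0 for the last 3 comparisons, and 4, 26, and 0 without early 5 and 6. In the latter fit 1.16% of genes tested were called lower in mid than in early AVFs. The called genes of the other cell cycle lists in early AVFs numbered 13, and 22 with DESeq2, 20 at an adjusted *p* under 0.05, 6 in female mice, 33 without the contralateral libraries with the fewest genes, 8 without early 5 and 6, and 34 without both. Counts with a sex term, filterByExpr, or RLE scaling, by sex in mid and late AVFs, and of the other lists have no share of all genes beside them. Neither have the fits that left out 1 library. Such counts show only how the number of calls moved. The cause of these differences was not tested.

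Leaving out each library in turn gave 12 to 16, 3 to 8, 2 to 8, 0 to 0, 0 to 2, and 0 to 0 members, and 10 to 16 genes of the other lists. The 8 in mid and in late AVFs and the 2 in late against early AVFs came without contralateral 27, the 2 in late AVFs without late 19, 23, or 24, and the 0 in late against early AVFs without early 2, 3, 5, 6, or 7, mid 12, or any late AVF.

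Shares of mitotic-gene positive cells in contralateral, early, and late libraries moved with depth and cutoff. Without thinning they were 1.25%, 10.3%, and 6.37% of all cells, 2.40%, 11.8%, and 9.41% of mono/macro-like cells, and 0.648%, 18.9%, and 2.02% of fibroblast-like cells. At 2000 UMIs they were 0.827%, 2.83%, and 1.66% of all cells, and 2.54% of late mono/macro-like cells. With at least 2 members they were 1.03%, 3.59%, and 1.99% of all cells, 2.12% and 2.42% of early and late mono/macro-like cells, and 6.31% of early fibroblast-like cells. With at least 5 members they were 0.369%, 1.06%, and 0.663% of all cells, 0.771% and 1.06% of early and late mono/macro-like cells, and 2.18% of early fibroblast-like cells. Resolution 1.0, removal of called doublets, and a mitochondrial limit of 20% left each share within its interval.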

Other observations

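A small unnamed cluster of cells led by *Ccr7*, *Il1b*, and *H2-Ab1* had mitotic-gene positive shares of 5.48%, 1.99%, and 5.00% in contralateral, early, and late libraries, and it made up 11.7% of the positive cells of late AVFs. A checkpoint kinase gene, *Bub1*, had the smallest adjusted *p* among members for a difference between sexes in the change of early AVFs (0.028, edgeR). It was the 1 member under 0.05, against 57 of 12673 genes tested. Its adjusted *p* was 0.16 in mid and 0.135 in late AVFs. The male contralateral veins were 632 and 633 alone, where *Bub1* was 26.3 and 0.41 CPM. It was at most 0.09 CPM in the female contralateral veins, so this difference rests on vein 632.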
